A study of Arabidopsis thaliana with 15 samples.

Results

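The genes described here act in leaf senescence and chlorophyll breakdown, and their levels were compared between rosette leaves of 4 Arabidopsis thaliana genotypes. The set was chosen by gene name and holds 10 of the 37336 genes in the count files: SAG12 (AT5G45890), SAG13 (AT2G29350), ORE1 (AT5G39610), NAP (AT1G69490), SGR1 (AT4G22920), NYC1 (AT4G13250), PPH (AT5G13800), PAO (AT3G44880), SAG113 (AT5G59220) and DIN1 (AT4G35770). Polyadenylated RNA was sequenced from the fifth rosette leaf at day 21, from plants kept at 22 °C and 50% humidity with 16 h of light. What sets the genotypes apart is which of 4 DNA glycosylase genes, DME, ROS1, DML2 and DML3, are mutated, and these enzymes cut methylated cytosine out of DNA. drdd carries dme-2, ros1-3, dml2-1 and dml3-1 (3 libraries, lettered B to D). rdd carries ros1-3, dml2-1 and dml3-1 (4 libraries, A to D), and dme carries dme-2 (4 libraries, A to D). WT is a segregant with the 4 genes intact (4 libraries, A to D). All 4 genotypes carry a transgene named pAGL61:DME, by its name DME under the promoter of AGL61, a gene of the central cell of the ovule, so neither WT nor the mutants are plants without a transgene. The labels name 1 allele per gene and do not say whether the libraries of a genotype came from separate plants, so p-values here reflect how these libraries vary, part of which may be technical.

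Leaf senescence is the ordered dismantling of an ageing or darkened leaf, in which nitrogen and other nutrients are withdrawn and the leaf loses its green colour. NAC transcription factors such as ORE1 and NAP switch on the programme, and their targets include enzymes of chlorophyll breakdown and of hormone signalling. Chlorophyll b is first reduced towards chlorophyll a, magnesium and the phytol tail are then removed, and finally the ring is opened, which yields colourless products stored in the vacuole. The genes are described from regulators through pigment enzymes, which are not in the order of the pathway, to the widely used senescence marker genes.

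The unit of level is CPM, the count of a gene per 1000000 counts of TMM-normalised library size. It is not corrected for gene length, so levels are compared between libraries and not between genes. Libraries held 8730340 to 23302135 counts, and 3 counts, the floor used here for a level near 0, corresponded to 0.129 to 0.342 CPM. DML2 had 6.78 to 11.3 CPM in drdd, 5.30 to 10.1 CPM in rdd, 23.9 to 28.1 CPM in dme and 21.3 to 31.9 CPM in WT. DME had 68.7 to 77.6 CPM in drdd, 74.8 to 106 CPM in rdd, 54.9 to 74.7 CPM in dme and 76.7 to 101 CPM in WT, and a count over a whole gene does not show whether its transcript is intact. ROS1 had 58.0 to 67.2 CPM in drdd, 52.9 to 68.3 CPM in rdd, 62.6 to 106 CPM in dme and 71.4 to 92.4 CPM in WT. DML3 had 2.56 to 3.80 CPM in drdd, 2.30 to 4.24 CPM in rdd, 5.00 to 9.10 CPM in dme and 4.78 to 7.75 CPM in WT. Leaf photosynthesis genes were high in every library (the 6 listed genes summed to 23754 to 31202 CPM in drdd, 32613 to 36870 CPM in rdd, 37047 to 43121 CPM in dme and 30184 to 37625 CPM in WT). Of 4 floral and meristem markers, none of which passed the filter on low counts, AP1, AP3 and STM did not exceed 0.197 CPM. The fourth, AG, had at most 0.154 CPM in drdd, 0.431 to 0.967 CPM in rdd (6 to 11 counts a library), at most 0.292 CPM in dme and at most 0.324 CPM in WT, so the rdd libraries lay above all others for AG. Its part in the rdd results was not tested. Some libraries stood apart from their genotype in 11 salicylic acid defence genes, whose mean log2 CPM was 1.96 to 3.16 in drdd, 5.36 in rdd B against 1.69 to 2.13 in the other rdd libraries, 3.25 to 4.51 in dme with the highest value in dme C, and 5.86 in WT A and 5.02 in WT C against 2.15 in WT B and 2.09 in WT D.

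No member passed the test in any of the 6 comparisons. Each mutant was set against WT, and drdd was also set against rdd and against dme. The sixth comparison, the interaction, asks how far drdd minus rdd departs from dme minus WT. Called genes are those with an adjusted p under 0.05 in edgeR's quasi-likelihood test with Benjamini-Hochberg adjustment over all 18598 genes that passed the filter on low counts. In all, 9 of the 10 members passed that filter and SAG12 had no counts. Of all tested genes, 1.35% were called in drdd against WT, 1.08% in rdd against WT, 0.0108% in dme against WT, 0.468% in drdd against rdd, 2.26% in drdd against dme and 0.108% in the interaction, so 0 of 9 members is close to these shares. At an unadjusted p under 0.05, 2 of 9 members passed in drdd against WT (PPH and DIN1), where 14.2% of all tested genes did. Against rdd, drdd differed at that level in NAP and PPH (2 of 9, against 11.3% of all tested genes). Against dme it differed in PPH, SAG113 and DIN1 (3 of 9, against 15.9%), and the interaction gave PPH and SAG113 (2 of 9, against 9.61%). No member reached an unadjusted p under 0.05 in rdd against WT, where 16% of tested genes did, or in dme against WT, where 4.52% did. Comparisons with WT share the 4 WT libraries and those of drdd share the 3 drdd libraries, so their values are given side by side and are not independent of each other.

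**Figure D1:**
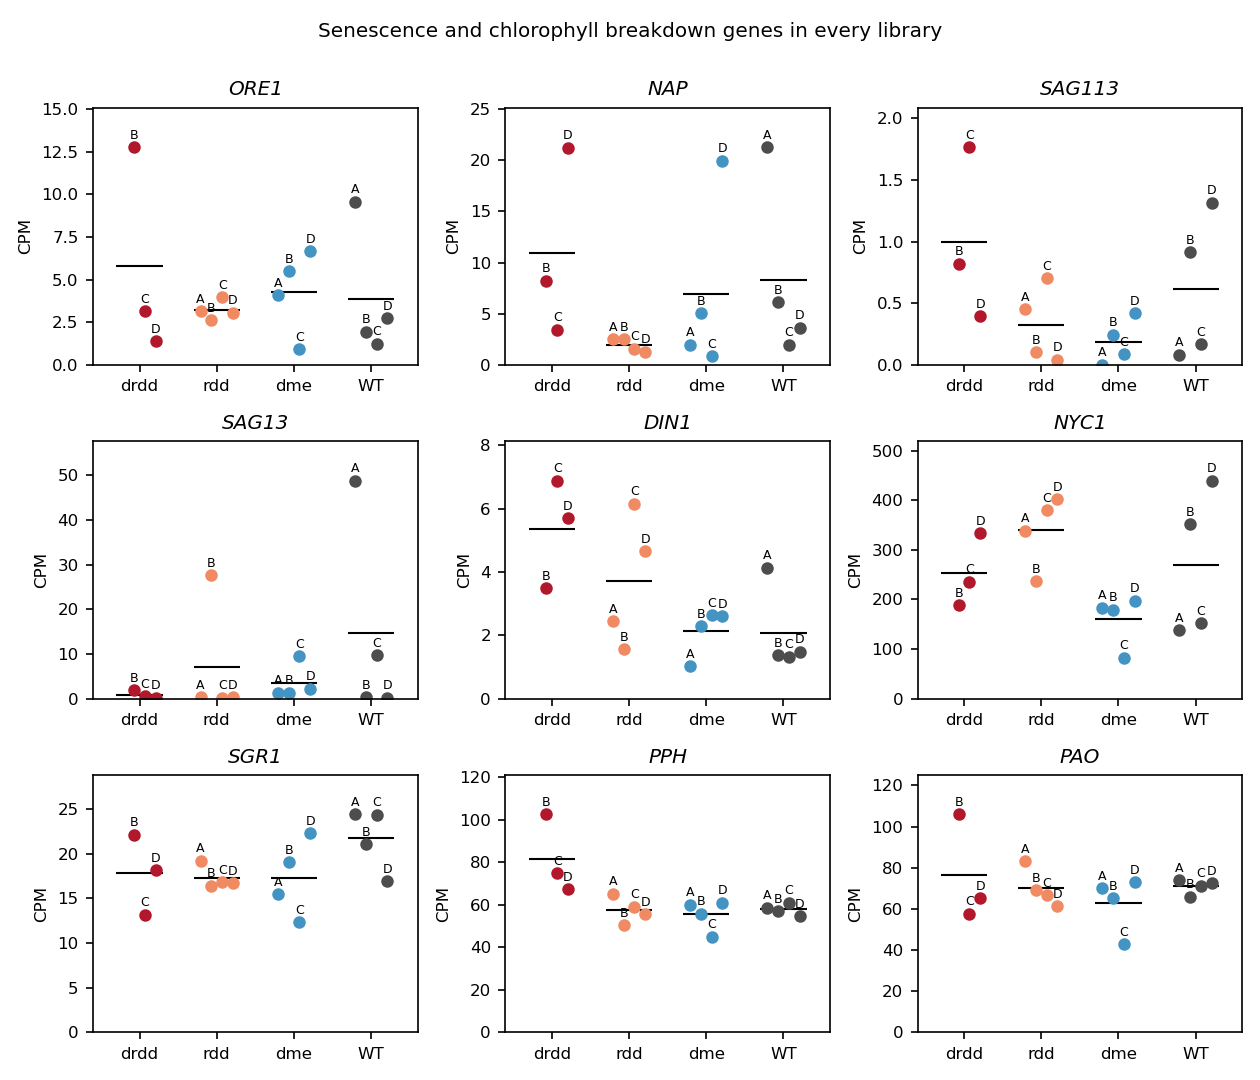
Level of each of the 9 detected members in CPM (linear axis from 0) for every library, with drdd, rdd, dme and WT from left to right, the replicate letter beside each point and a horizontal line at the genotype mean. PPH has its 3 drdd libraries at 67.4 to 103 CPM, above every library of the other genotypes, a pattern whose share among all tested genes was not computed. SAG13 spreads widely within genotypes, as do NAP and ORE1 within drdd, dme and WT.

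Among the regulators, NAP encodes a NAC transcription factor that promotes leaf senescence. NAP had 8.22, 3.44 and 21.2 CPM in drdd B, C and D. It had 2.53, 2.51, 1.58 and 1.29 CPM in rdd A to D, 1.97, 5.07, 0.847 and 19.97 CPM in dme A to D, and 21.3, 6.16, 1.98 and 3.62 CPM in WT A to D. The 4 rdd libraries lay together at the low end, and each of the other genotypes had 1 library at 19.97 CPM or above, namely drdd D, dme D and WT A. The means were 10.96 ± 9.21 CPM in drdd (SD, n = 3), 1.98 ± 0.635 CPM in rdd, 6.96 ± 8.85 CPM in dme and 8.27 ± 8.87 CPM in WT (n = 4 each). In order of level they ran drdd, WT, dme, rdd, and neighbours in this order did not differ beyond their spread.

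The drdd libraries lay above all rdd libraries for NAP, 1 of 2 members that did so, where 5.8% of all tested genes were higher without overlap. The log2 fold change of drdd against rdd was 2.49 (95% interval 0.28 to 4.70), a 5.61-fold difference of fitted levels, with an edgeR adjusted p of 0.370. Without drdd D, the highest drdd library, this value was 1.59 on the log2 scale. The rdd libraries overlapped with WT only through WT C at 1.98 CPM. There the log2 fold change of rdd was -2.09 (95% interval -4.20 to 0.02) with an edgeR adjusted p of 0.316. Without WT A this value was -0.998, and without WT C it was -2.42. In the authors' deposited table NAP had an adjusted p of 0.0270 in rdd against WT, with a log2 fold change of -2.08 and a standard error of 0.63. In the authors' deposited table of drdd against rdd it had an adjusted p of 0.000645, a log2 fold change of 2.48 and a standard error of 0.54. For the same comparisons the edgeR standard errors, derived here from the F statistic of its test, were 0.98 and 1.02. DESeq2 run here on all 15 libraries gave standard errors of 0.93 and 1.00, with adjusted p of 0.207 and 0.214. NAP was the one member called in the authors' deposited tables, which called 4.7% of genes with an adjusted p in rdd against WT and 3.12% in drdd against rdd.

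ORE1, a NAC transcription factor that drives age-dependent cell death and is held in check by a microRNA in young leaves, did not separate the genotypes. ORE1 had 12.8, 3.15 and 1.38 CPM in drdd B, C and D, 3.16, 2.61, 3.96 and 3.06 CPM in rdd A to D, 4.08, 5.48, 0.932 and 6.66 CPM in dme A to D, and 9.57, 1.94, 1.24 and 2.72 CPM in WT A to D. drdd B and WT A were high, dme C was low, and all 4 genotypes overlapped. The log2 fold change was 0.60 in drdd (95% interval -1.06 to 2.25, edgeR adjusted p = 0.776), -0.28 in rdd (-1.86 to 1.30) and 0.14 in dme (-1.42 to 1.702), each against WT. Without drdd B the drdd value was -0.78, so its sign rested on that library.

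SAG113 encodes a clade A protein phosphatase 2C that acts in abscisic acid signalling and water loss of senescing leaves, and it was measured by only 89 counts in all 15 libraries. It had 0.822, 1.77 and 0.393 CPM in drdd B, C and D (38 counts in all), 0.451, 0.105, 0.703 and 0.0431 CPM in rdd A to D (15 counts), 0, 0.245, 0.0847 and 0.421 CPM in dme A to D (9 counts), and 0.0811, 0.912, 0.165 and 1.32 CPM in WT A to D (27 counts). Several rdd, dme and WT libraries were under the floor of 3 counts, the drdd libraries were all above it, and every genotype overlapped with drdd. The log2 fold change of drdd against dme was 2.36 (95% interval 0.13 to 4.60, edgeR adjusted p = 0.283), against rdd it was 1.66 (-0.46 to 3.78), and against WT it was 0.69 (-1.33 to 2.70). The interaction was 3.33 on the log2 scale (95% interval 0.27 to 6.39) with an edgeR adjusted p of 0.482. No comparison passed the adjusted threshold for SAG113, whose values rest on 0 to 18 counts a library.

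Of the chlorophyll enzymes, PPH came closest to the threshold. PPH encodes pheophytinase, which cuts the phytol tail from pheophytin. PPH had 103, 74.9 and 67.4 CPM in drdd B, C and D, against 65.3, 50.4, 59.2 and 55.6 CPM in rdd A to D, 60.1, 55.9, 45.1 and 61.1 CPM in dme A to D, and 58.7, 56.9, 61.1 and 54.8 CPM in WT A to D. All 3 drdd libraries were above all 12 others, with drdd D at 67.4 CPM next to rdd A at 65.3 CPM, while rdd, dme and WT overlapped with one another. The share of all tested genes with drdd above all 12 others was not computed. The means were 81.6 ± 18.5 CPM in drdd (SD, n = 3), 57.6 ± 6.25 CPM in rdd, 55.5 ± 7.34 CPM in dme and 57.9 ± 2.66 CPM in WT (n = 4 each).

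PPH was the one member whose drdd range lay above the WT range, where 6.64% of all tested genes did so. The log2 fold change of drdd was 0.50 against WT (95% interval 0.19 to 0.80, edgeR adjusted p = 0.125), a 1.41-fold difference. It was 0.50 against rdd (0.20 to 0.81, edgeR adjusted p = 0.173) and 0.56 against dme (0.25 to 0.86, edgeR adjusted p = 0.0563). The log2 fold changes of rdd (-0.0064, 95% interval -0.29 to 0.28) and of dme (-0.06, -0.34 to 0.23) against WT were close to 0. The interaction was 0.56 on the log2 scale (95% interval 0.15 to 0.98, edgeR adjusted p = 0.380). The call depended on the method and on the libraries used. DESeq2 run on the same counts gave adjusted p of 0.0439 against WT, 0.0503 against rdd and 0.0121 against dme, and the authors' deposited tables gave 0.0989 against WT and 0.106 against rdd. With edgeR the adjusted p against dme was 0.0344 without drdd D, and without drdd B the log2 fold change against WT was 0.30 (0.36 against dme).

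NYC1, a chlorophyll b reductase that starts the conversion of chlorophyll b to chlorophyll a, varied widely within WT. NYC1 had 189, 236 and 333 CPM in drdd B, C and D. It had 339, 237, 380.3 and 402 CPM in rdd A to D, 183, 179.7, 82.7 and 198 CPM in dme A to D, and 138, 352, 153 and 439.7 CPM in WT A to D. WT split into 2 high and 2 low libraries that enclosed the values of every other library but dme C, the lowest of all, and drdd overlapped with rdd, dme and WT. All rdd libraries (mean 339 ± 73.1 CPM, SD, n = 4) lay above all dme libraries (161 ± 52.7 CPM, n = 4). That pair was not among the 6 comparisons and was not tested. The share of all tested genes that separate rdd from dme in this way was not computed. The log2 fold changes against WT were -0.10 in drdd (95% interval -0.97 to 0.77), 0.33 in rdd (-0.48 to 1.13) and -0.75 in dme (-1.56 to 0.06), with edgeR adjusted p of 0.940, 0.676 and 0.974 in that order. Between drdd and dme the log2 fold change was 0.65 (-0.21 to 1.52, edgeR adjusted p = 0.449).

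SGR1 is the magnesium dechelatase that turns chlorophyll a into pheophytin a. SGR1 had 22.1, 13.2 and 18.2 CPM in drdd B, C and D, 19.2, 16.4, 16.8 and 16.7 CPM in rdd A to D, 15.5, 19.0, 12.4 and 22.3 CPM in dme A to D, and 24.4, 21.1, 24.4 and 17.0 CPM in WT A to D. Its whole range was 1.97-fold, the narrowest of the 8 members with counts in every library, and all genotypes overlapped. The log2 fold changes against WT were -0.28 in drdd (95% interval -0.72 to 0.16), -0.33 in rdd (-0.73 to 0.08) and -0.33 in dme (-0.73 to 0.08), with edgeR adjusted p of 0.569, 0.401 and 0.974 in that order.

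PAO encodes pheophorbide a oxygenase, the enzyme that opens the chlorophyll ring. PAO had 106, 57.6 and 65.2 CPM in drdd B, C and D, 83.3, 69.1, 66.6 and 61.4 CPM in rdd A to D, 70.01, 65.2, 43.0 and 72.9 CPM in dme A to D, and 73.9, 65.9, 71.3 and 72.5 CPM in WT A to D. drdd B was the highest library and dme C the lowest, and the remaining 13 lay between 57.6 and 83.3 CPM in all 4 genotypes. The log2 fold changes against WT were 0.11 in drdd (95% interval -0.32 to 0.54, edgeR adjusted p = 0.860), -0.02 in rdd (-0.42 to 0.38) and -0.18 in dme (-0.58 to 0.22). Without drdd B the drdd value was -0.21. PPH and PAO act in the same pathway, and both had their highest level in drdd B and their lowest in dme C. ORE1, a regulator, had the same extremes, and dme C was the lowest library for 6 of the 9 detected members.

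**Figure D2:**
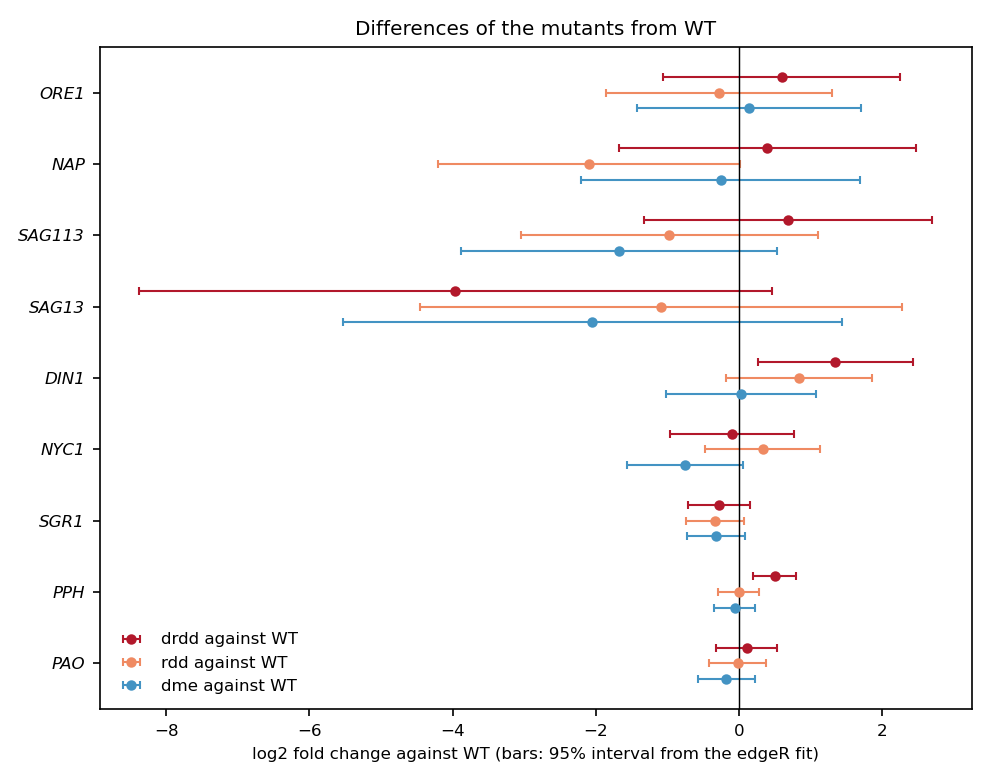
Log2 fold change of each detected member in drdd, rdd and dme against WT, as points with the 95% interval from the edgeR fit. The interval lies above 0 for PPH (0.19 to 0.80) and DIN1 (0.26 to 2.43) in drdd, and neither passed the adjusted threshold.

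SAG12, DIN1 and SAG13 are widely used as markers of senescing leaves. SAG12 encodes a cysteine protease whose transcript appears in leaves that senesce with age. It had 0 counts in all 15 libraries, and a count of 0 allows a level of up to 0.129 CPM in the most deeply sequenced library and up to 0.342 CPM in the least. These limits cover counting error only.

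DIN1 encodes a small protein with a rhodanese domain and is induced by darkness and in senescing leaves. DIN1 had 3.49, 6.88 and 5.70 CPM in drdd B, C and D, 2.44, 1.57, 6.15 and 4.65 CPM in rdd A to D, 1.02, 2.29, 2.63 and 2.61 CPM in dme A to D, and 4.13, 1.37, 1.32 and 1.48 CPM in WT A to D. All 3 drdd libraries were above the 4 dme libraries, and WT A alone among WT libraries reached the drdd range. The order of the means was drdd (5.36 ± 1.72 CPM, SD, n = 3), rdd (3.70 ± 2.09 CPM), dme (2.14 ± 0.760 CPM) and WT (2.08 ± 1.37 CPM, n = 4 each), and neighbours in this order overlapped.

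The log2 fold change of DIN1 was 1.34 in drdd against WT (95% interval 0.26 to 2.43, edgeR adjusted p = 0.244), a 2.54-fold difference. It was 1.32 against dme (0.24 to 2.40, edgeR adjusted p = 0.211) and 0.51 against rdd (-0.55 to 1.57). Against dme, DIN1 and PPH were the 2 members without overlap, both higher, where 6.84% of all tested genes were. The log2 fold change was 0.83 in rdd (95% interval -0.19 to 1.85) and 0.03 in dme (-1.02 to 1.07) against WT. DIN1 lies on chromosome 4 within 2 Mb of DML3, which is mutated in rdd and drdd, and was the one member so close to any of the 4 demethylase genes in the RefSeq table of assembly TAIR10.1. Whether sequence linked to the dml3-1 allele differs between the genotypes was not tested.

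SAG13, a short-chain dehydrogenase gene that is induced early in senescence and in stressed leaves, varied most between libraries of the 9 detected members (SD of log2 CPM 2.37). Its levels ran between 602 counts in WT A and 2 counts in rdd C and in drdd D, both of which are under the floor of 3 counts. SAG13 had 1.85, 0.492 and 0.197 CPM in drdd B, C and D, 0.361, 27.7, 0.176 and 0.388 CPM in rdd A to D, 1.31, 1.31, 9.57 and 2.19 CPM in dme A to D, and 48.8, 0.342, 9.67 and 0.247 CPM in WT A to D. High values came from single libraries, rdd B, dme C, WT A and WT C, and none of the drdd libraries was among them, yet all genotypes overlapped. The log2 fold changes against WT were -3.96 in drdd (95% interval -8.38 to 0.45, edgeR adjusted p = 0.403), -1.09 in rdd (-4.46 to 2.27) and -2.05 in dme (-5.54 to 1.44). Without WT A these became -1.90, 1.00 and 0.05, and without rdd B the value of drdd against rdd became 1.52 in place of -2.87. Its neighbours on the chromosome belong to the same gene family, and reads of similar copies may be hard to assign. Of 8 such genes 6 were tested, and their correlations with SAG13 across the 15 libraries were -0.57 to 0.62, as a description.

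The libraries with high SAG13 were those with high defence gene levels. SAG13 tracked the mean log2 CPM of the 11 salicylic acid defence genes across the 15 libraries (Pearson's r = 0.975, permutation p = 1e-05, the smallest that 100000 permutations can give; Spearman's rho = 0.943, permutation p = 1e-05), and within genotypes r was 0.982. Over the 27 relations of members with 3 gene lists, the adjusted permutation p was 0.00027 for both. The lists were chosen with earlier results of these data known, and the adjustment does not cover that choice. The permutations shuffled all 15 libraries without regard to genotype, and the r within genotypes was not tested. NYC1 ran the other way, with r = -0.784 (permutation p = 0.00047, adjusted 0.0045), rho = -0.821 (permutation p = 0.00032, adjusted 0.00432) and r = -0.846 within genotypes. Leaving out WT A and rdd B, the libraries farthest from the median of the defence genes, gave r = 0.959 for SAG13 and -0.893 for NYC1. For ORE1 and NAP r was 0.09 and 0.08. Defence gene levels also differed between libraries of 1 genotype, and their part in the fold changes of SAG13 and NYC1 was not tested.

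**Figure D3:**
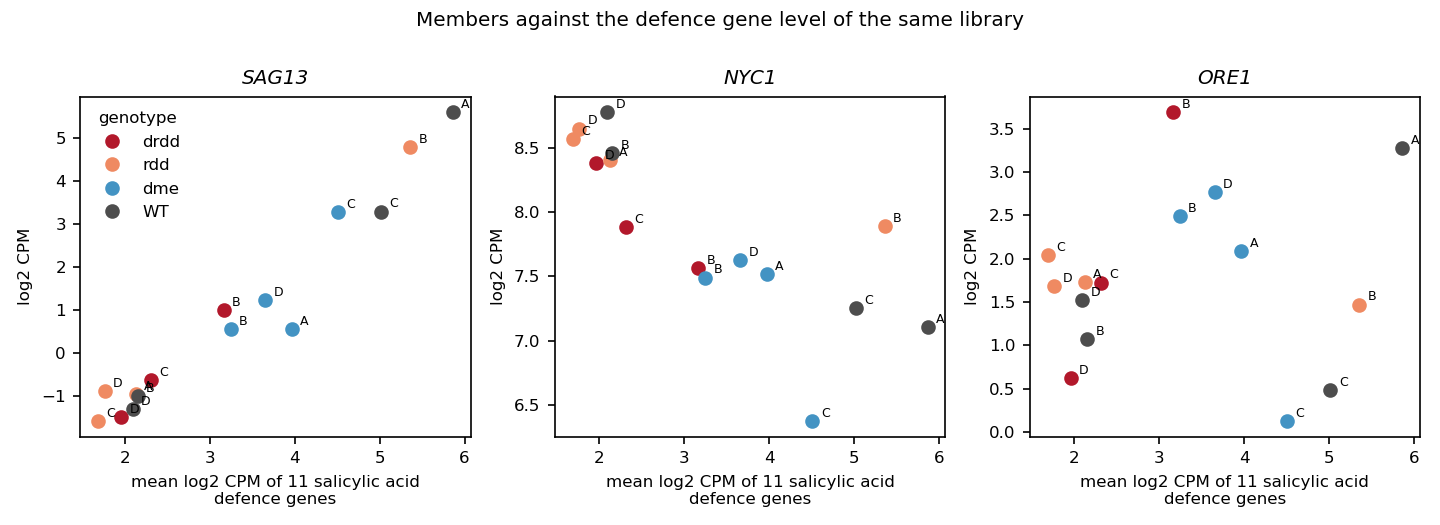
Log2 CPM of SAG13, NYC1 and ORE1 (vertical axes) in each of the 15 libraries against the mean log2 CPM of 11 salicylic acid defence genes in the same library, coloured by genotype and lettered by replicate. SAG13 climbs with the defence genes (r = 0.975), NYC1 declines (r = -0.784) and ORE1 has r = 0.09.

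SAG113 went with a list of 8 detected genes of the abscisic acid, cold and drought response (r = 0.778, permutation p = 0.0005, adjusted 0.0045; rho = 0.711, permutation p = 0.00397, adjusted 0.0357). Within genotypes r was 0.695, and without WT D and drdd C, the libraries farthest from the median of the list, it was 0.59. The list itself had mean log2 CPM of 5.29 to 7.33 in drdd, 4.45 to 5.62 in rdd, 4.36 to 4.93 in dme and 4.01 to 6.39 in WT, highest in drdd C, which also had the highest SAG113 level. SAG113 had 0 to 18 counts a library. Several libraries lay at or under the floor of 3 counts, where its log2 CPM depends much on the prior count of 2. The part of the listed genes in the SAG113 differences was not tested.

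Among the 36 pairs of members, 1 passed after adjustment, SAG13 with NYC1 (r = -0.752, permutation p = 0.00115, adjusted 0.0414; rho = -0.779, permutation p = 0.0012, adjusted 0.0432). Within genotypes this r was -0.878, and without WT A and rdd B it was -0.917. PPH and PAO had r = 0.695 (permutation p = 0.0117, adjusted 0.105) and rho = 0.343 (permutation p = 0.213), and without dme C and drdd B the r was -0.177, so the relation rests on those 2 libraries. SGR1 with PAO (r = 0.683, adjusted permutation p = 0.0738) and ORE1 with PAO (r = 0.663, adjusted permutation p = 0.082) dropped to 0.395 and 0.188 without 2 libraries each, dme C and drdd C for SGR1 and dme C and drdd B for ORE1. Of the 9 detected members, dme C had the lowest level of all 15 libraries for 6, drdd B the highest for 3 and WT A the highest for 3.

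**Figure D4:**
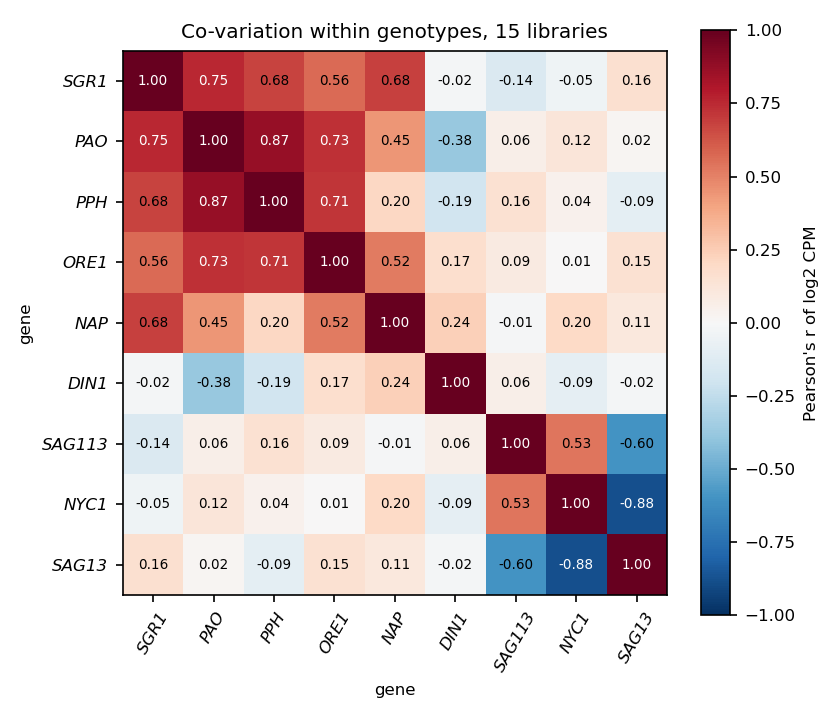
Pearson's r of log2 CPM between detected members within genotypes, after the genotype mean was subtracted from each library, over 15 libraries. SGR1, PAO, PPH and ORE1 are positive with one another (0.56 to 0.87), and NAP has 0.68 with SGR1 and 0.20 with PPH. SAG13 is negative with NYC1 (-0.88) and SAG113 (-0.60). Without dme C and drdd B, and with no genotype means subtracted, r was -0.177 for PPH with PAO and -0.127 for ORE1 with PPH.

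For each detected member, the tested genes most like it were sought as those with the highest Pearson's r of log2 CPM over the 15 libraries. These r are the highest among 18598 genes and are given as a description. SAG13 was most like RLP7, a receptor-like protein gene (r = 0.971), and NYC1 was most like APX1 (0.968) and SAPX (0.9498), which encode a cytosolic and a plastid ascorbate peroxidase. SGR1 was most like AT2G42490 (0.958) and then ATG8F (0.943), a gene of autophagy. PPH was most like CORI3 (0.931), known for its response to coronatine and jasmonate, PAO was most like AT1G23440 (0.920), and NAP was most like AUD1 (0.922). SAG113 was most like PP2CA (0.880), another phosphatase of its clade, and this r includes several libraries where SAG113 was near the floor. DIN1 was most like PSRP3/2 (0.917), and ORE1 had the lowest best match, AT5G57070 (0.812).

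The related genes of each pathway changed in few cases. Of the 10 other genes of chlorophyll breakdown 9 were tested, and 1 was called in any comparison: SGRL, a relative of SGR1 that acts in green leaves. SGRL had 95.5, 97.8 and 158 CPM in drdd B, C and D, against 169, 242, 184 and 200.1 CPM in dme A to D. The 2 groups did not overlap, where 1412 of 18598 tested genes were lower without overlap. SGRL fell by 0.76 on the log2 scale (SE 0.18, edgeR adjusted p = 0.0455). In 13 of 21 alternatives, the fit to the compared libraries alone among them (0.165), the adjusted p was above the threshold. Against WT, where SGRL had 178, 172, 227 and 178 CPM in WT A to D, the log2 fold change in drdd was -0.69 (edgeR adjusted p = 0.0962). None of the 9 was called in drdd, rdd or dme against WT, and their median log2 fold changes were -0.018, -0.0019 and 0.073, against 0.40, -0.28 and -0.26 for the 9 members and about 0 for all tested genes.

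All 23 other senescence transcription factors on the list were tested. EIL1, an ethylene signalling factor related to EIN3, was the 1 called in rdd against WT, with 121, 118, 109 and 114 CPM in rdd A to D against 154, 156, 152 and 154 CPM in WT A to D. The groups did not overlap. Of 18598 tested genes, 959 were lower without overlap in rdd, 1201 in drdd and 260 in dme, each against WT. EIL1 fell by 0.41 on the log2 scale in rdd (SE 0.09, edgeR adjusted p = 0.0438). In 13 of 21 alternatives the adjusted p was above the threshold, up to 0.164. EIL1 was also below every WT library in drdd (102 to 131 CPM, log2 fold change -0.38, edgeR adjusted p = 0.0893) and in dme (122 to 148 CPM, -0.17, edgeR adjusted p = 0.974), without passing the threshold, and between drdd and rdd the log2 fold change was 0.03 (95% interval -0.18 to 0.24). PIF4, a phytochrome-interacting factor that promotes senescence in the dark, was the 1 called in drdd against dme. There, 6.84% of all tested genes were higher without overlap. PIF4 had 49.4, 76.9 and 40.5 CPM in drdd B, C and D, against 23.1, 23.1, 21.6 and 12.0 CPM in dme A to D, and rose by 1.47 on the log2 scale (SE 0.29, edgeR adjusted p = 0.0171) without overlap. That p was above the threshold in 3 of 21 alternatives, namely 0.106 without drdd C, 0.0771 in the fit to drdd and dme libraries only and 0.0743 with a replicate block. Against WT, with 25.0, 47.6, 29.8 and 45.5 CPM in WT A to D, PIF4 was not called in drdd, rdd or dme. Its dme libraries lay below all WT libraries (log2 fold change -0.89, unadjusted p 0.00536 and adjusted p 0.974 in edgeR), while drdd overlapped with WT (log2 fold change 0.59, edgeR adjusted p = 0.365). None of the 23 was called in drdd against rdd, where their median log2 fold change was 0.33, against 0.50 for the members.

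Of the other lists, none of the 10 tested SAG and YLS genes, 5 tested dark inducible genes and 14 tested genes of nitrogen and protein remobilisation was called in any of the 6 comparisons. Among the 5 dark inducible genes DIN6, an asparagine synthetase gene, had the highest log2 fold change in rdd against WT, 2.83 (edgeR adjusted p = 0.201). Its groups did not overlap, where 951 of 18598 tested genes were higher without overlap in rdd against WT. DIN6 levels were low, with means of 3.66 CPM in rdd and 0.504 CPM in WT. Of the 6 tested relatives of SAG113 in clade A, PP2CA was the 1 called, in drdd against dme. PP2CA, an inhibitor of abscisic acid signalling, had 88.4, 124 and 83.7 CPM in drdd B, C and D, against 50.4, 57.3, 56.6 and 66.7 CPM in dme A to D. It rose by 0.77 on the log2 scale (SE 0.18, edgeR adjusted p = 0.0435) without overlap, where 6.84% of all tested genes were higher without overlap. For PP2CA, 12 of 21 alternatives put the adjusted p above the threshold. HAI2, the clade member with the highest log2 fold change in that comparison (2.81), did not pass (edgeR adjusted p = 0.0722). Its mean in dme was 0.284 CPM, near the floor of 3 counts (0.129 to 0.342 CPM). The abscisic acid, cold and drought list of 8 tested genes gave 1 call against WT, RAB18, a dehydrin gene that responds to abscisic acid, with 45.6, 66.8 and 30.1 CPM in drdd B, C and D against 11.8, 27.7, 10.002 and 20.6 CPM in WT A to D (log2 fold change 1.45, SE 0.31, edgeR adjusted p = 0.0355), and 11 of 21 alternatives put the adjusted p above the threshold. The rdd libraries, at 30.8 to 43.2 CPM, were also above all WT libraries for RAB18, with a log2 fold change of 1.05 that did not pass (edgeR adjusted p = 0.112), and between drdd and rdd it was 0.39 (95% interval -0.26 to 1.05). Against dme, where RAB18 had 12.8 to 15.7 CPM, the log2 fold change was 1.74 (edgeR adjusted p = 0.0111), a call lost under the replicate block (0.0526) and without drdd C (0.0728). No gene of the salicylic acid defence list (11 tested), of the SAG13 neighbours (6 tested) or of the markers of other cells and organs (6 tested) was called in any of the 6 comparisons. Of 6 photosynthesis genes 1 was called, RCA, which encodes Rubisco activase and fell by 0.91 on the log2 scale in drdd against dme (edgeR adjusted p = 0.0448), and 13 of 21 alternatives put that p above the threshold, up to 0.194 without drdd C. In whole leaves, fewer cells of a type and less RNA per cell cannot be told apart, for the members as for these genes.

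**Figure D5:**
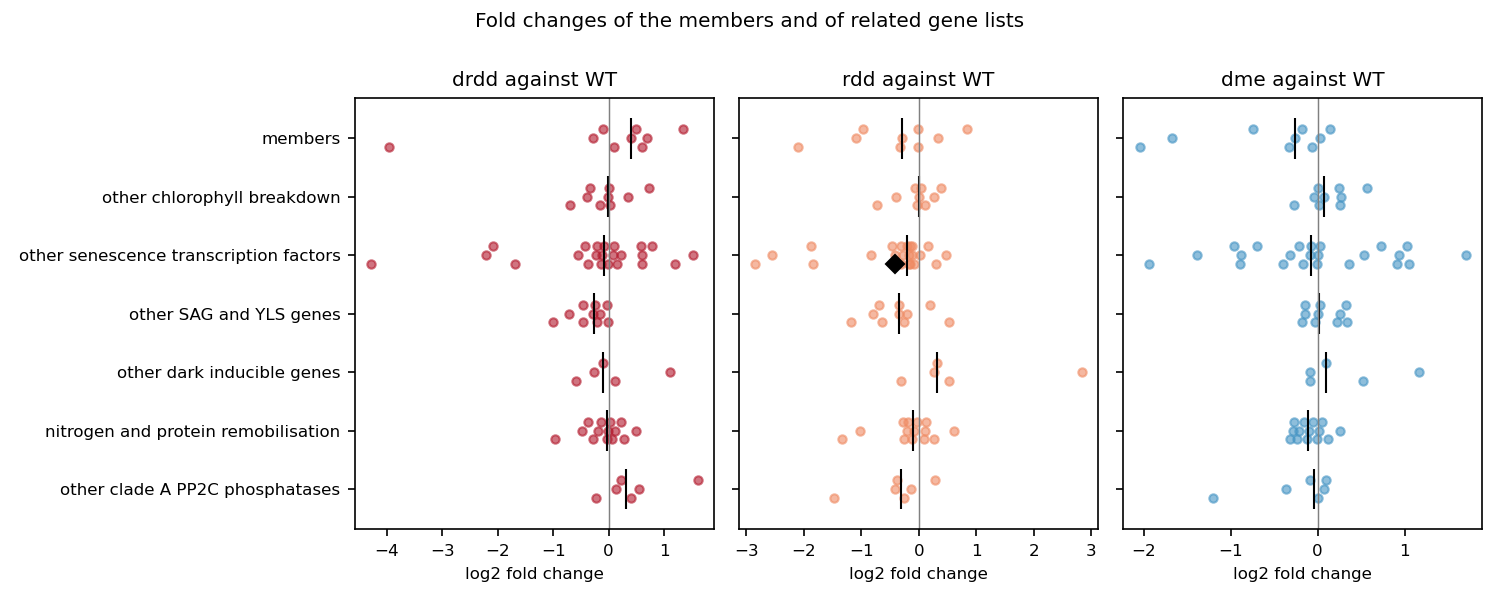
Log2 fold changes of the members and of 6 related gene lists in drdd, rdd and dme against WT, 1 point per tested gene, with a vertical bar at each list's median and a black diamond for a called gene. EIL1 in rdd (-0.41) is the 1 called gene; the members' median is 0.40 in drdd, -0.28 in rdd and -0.26 in dme.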

How the data were processed

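Each library's deposited file holds whole-number counts of reads per gene. The submitters' processing notes list DESeq2, HTSeq, STAR, Trim Galore and FastQC. Which settings, strand option and genome build they used is not given in the sources used here, so reads of overlapping or antisense genes cannot be told apart. The 5 summary lines that name no gene stayed out of library sizes and tests, and reads outside genes were 1.54% to 2.17% of a library. The authors also deposited DESeq2 tables, which per the file headers hold mean normalised signal, log2 fold changes with standard errors, the Wald statistic as a score, p-values and adjusted p-values.

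The members and lists were chosen with earlier results of these data known. Counts were tested here with edgeR 4.0.16 in R 4.3.3: filterByExpr with a minimum count of 10, TMM factors (0.953 to 1.09) and 1 robust quasi-likelihood fit of group means over 15 libraries, which has 11 residual degrees of freedom, checked on simulated counts. The edgeR standard error was taken as the absolute log2 fold change divided by the square root of the F statistic. Intervals are 95% intervals built from that standard error, and log2 CPM used a prior count of 2. Alternatives were RLE size factors, no count filter, DESeq2 1.42.0, the compared libraries alone, a replicate block, each library left out in turn and, added after seeing the data, leaving out dme C and rdd B. Correlations had 100000 permutations, which shuffled all 15 libraries without regard to genotype. Named genes were all members, up to 4 called genes of each list, lowest adjusted p first, and up to 3 genes most like each member. Where none was called, the gene of a list with the lowest adjusted p could be given. HAI2 and GL2 fell outside this rule and were chosen after their values were seen. Gene names were matched through RefSeq's TAIR10.1 table (137 of 137 list genes); no sequence, coordinate or gene length is given.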

Additional observations from a re-analysis of the deposited data

Results flagged for a closer look

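A library was looked at again where its distance to the nearest other library of its genotype was a larger share of the genotype's whole range than Dixon's critical value for 4 libraries. Of the 51 gene and genotype groups examined, 7 did so, 5 of them among members. Only genotypes with 4 libraries were examined, so no drdd library could be flagged. The critical value gives about 1 in 20 for independent, normally distributed values. CPM of genes such as SAG13 is skewed, the groups share libraries, and genes outside the members entered only because they were called. The count of 7 therefore cannot be set against that rate. SAG13 stood apart at 27.7 CPM in rdd B, against 0.176 to 0.388 CPM in the other rdd libraries, and at 9.57 CPM in dme C, against 1.31 to 2.19 CPM in the other dme libraries. NYC1 had 82.7 CPM in dme C, against 180 to 198 CPM in the other dme libraries. DIN1 had 4.13 CPM in WT A, against 1.32 to 1.48 CPM in the other WT libraries. SGR1 had 19.2 CPM in rdd A, against 16.4 to 16.8 CPM in the other rdd libraries. Outside the members, PIF4 had 12.0 CPM in dme D, against 21.6 to 23.1 CPM in the other dme libraries, and SGRL had 227 CPM in WT C, against 172 to 178 CPM in the other WT libraries.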

How the results depend on the processing

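PPH was the 1 member called under any alternative: DESeq2 called 1 member in drdd against WT and 1 in drdd against dme, and the fits that left out 1 library called 0 to 1 in drdd against dme (1 without drdd D). In the other 4 comparisons no member was called under any alternative run. Counts over all genes moved more. Calls with all libraries were 251 in drdd, 200 in rdd and 2 in dme against WT, 87 in drdd against rdd, 420 in drdd against dme and 20 in the interaction. DESeq2 gave 643, 632, 10, 381, 992 and 193 in that order. The compared libraries alone gave 111 in drdd and 0 in dme against WT, 50 in drdd against rdd and 134 in drdd against dme. Without dme C and rdd B the counts were 504 in rdd against WT and 134 in drdd against rdd. Leaving out 1 library gave 105 to 318 in drdd, 93 to 327 in rdd and 2 to 3 in dme against WT, 19 to 126 in drdd against rdd, 126 to 494 in drdd against dme and 6 to 45 in the interaction. The cause of these differences was not tested. RLE size factors and no count filter kept every count within 1.5 times, and no setting moved the median log2 fold change of all genes by over 0.1.

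The replicate letters did not pair the libraries: of 21 pairs with the same letter 8 had a correlation of deviations over 0.1 (range -0.49 to 0.43), and 3 of 15 libraries were closest to their own letter. A replicate block gave 139 calls in drdd and 111 in rdd against WT, 50 in drdd against rdd, 225 in drdd against dme and 12 in the interaction, with no member called, and turned ORE1 in rdd against WT to 0.10.

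Of 54 log2 fold changes of members, 26 changed sign under at least 1 alternative, and none of them was called. Over the fits that left out 1 library they ranged as follows. For dme against WT they were SAG13 -3.19 to 0.053, ORE1 -0.16 to 1.13, NAP -1.65 to 0.85, PPH -0.11 to 0.0404 and DIN1 -0.14 to 0.62. For rdd against WT they were SAG13 -5.49 to 1.00, ORE1 -0.58 to 0.69, PPH -0.071 to 0.051 and PAO -0.11 to 0.042. For drdd against WT they were ORE1 -0.78 to 1.57, NAP -0.49 to 1.49, NYC1 -0.36 to 0.27 and PAO -0.21 to 0.27. For drdd against rdd they were SAG13 -4.30 to 1.52, ORE1 -0.50 to 1.33, SGR1 -0.14 to 0.23 and PAO -0.19 to 0.29. For drdd against dme they were ORE1 -0.92 to 0.89, NAP -0.25 to 2.05, SGR1 -0.14 to 0.21 and PAO -0.034 to 0.43. In the interaction they were SAG13 -2.95 to 3.55, ORE1 -0.64 to 1.17, NYC1 -0.023 to 0.53, PAO -0.016 to 0.45 and DIN1 -0.11 to 0.83. Without dme C and rdd B the turned values were NAP 0.12, PPH 0.0402 and DIN1 -0.0797 in dme against WT, PPH 0.0503 in rdd against WT, SAG13 1.53 in drdd against rdd, SGR1 -0.0937 in drdd against dme, and SAG13 4.72 and NYC1 -0.0424 in the interaction. There were 3 or 4 libraries a genotype, and the edgeR biological coefficient of variation was 1.45 for SAG13, 0.841 for NAP, 0.823 for SAG113 and 0.688 for ORE1, against a median of 0.193 over tested genes. SAG113 also had only 89 counts, and how much of its error comes from counting was not tested.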

Other observations

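GL2, a regulator of trichome development that was on the list of markers of other cell types, was at 0 counts in WT A, WT C, dme B and dme C. In the other 11 libraries it had 1.76 to 4.23 CPM: 2.82, 4.23 and 2.56 CPM in drdd B, C and D, 2.89, 3.55, 1.76 and 2.67 CPM in rdd A to D, 2.33 and 2.44 CPM in dme A and D, and 3.65 and 2.47 CPM in WT B and D. With floors of 3 counts of 0.129 to 0.342 CPM, the libraries at 0 lay below the others by more than counting error. WT A, WT C and dme C were also 3 of the 4 libraries with the highest mean log2 CPM of the salicylic acid defence genes (5.86, 5.02 and 4.51), while rdd B, the remaining one at 5.36, had GL2 at 3.55 CPM and dme B had 3.25 for the defence genes. GL2 was not called in any of the 6 comparisons and was picked out here after its values were seen.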
